A study of Homo sapiens with 8 samples.

Results

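The minor spliceosome snRNAs U11, U12, U4atac and U6atac and the histone-processing snRNA U7 were examined in A549 cells, a line from a human lung adenocarcinoma, transfected with an siRNA against APE1 (label siAPEX1) or with a scramble control siRNA (label siCTRL). The members are the rows of the count table whose Ensembl identifier carries the GENCODE 44 symbol RNU11, RNU12, RNU4ATAC, RNU6ATAC or RNU7-1. They are 5 of the 58302 genes of the table, which holds 1900 genes annotated as snRNA. Each group had 4 libraries of total RNA, and the cells were collected 72 h after transient transfection. The libraries came from a kit for small RNA that adds a poly-A tail to the 3′ end of each RNA and switches template at its 5′ end. The protocol was changed so that primary miRNA transcripts were also read. Neither group carries a genetic change beyond those of the line, and the silencing was transient.

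Most human introns are removed by the major spliceosome, built on the U1, U2, U4, U5 and U6 snRNAs, while a small class of U12-type introns is removed by the minor spliceosome. In the latter, U11 pairs with the 5′ splice site and U12 with the branch site, U4atac delivers U6atac in a paired complex, and U5 is shared by both machineries. U7 takes no part in splicing and pairs with the downstream element of replication-dependent histone pre-mRNAs, whose 3′ ends are cut and not polyadenylated. U11, U12, U4atac and U7 are made by RNA polymerase II and bind a ring of Sm-type proteins, whereas U6atac is made by RNA polymerase III, ends in a run of T in its gene and binds the LSm ring.

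The gene sequences of the 5 snRNAs are shown because their functional elements and their place in the genome bear on what could be counted. They were read from GRCh38 on the strand of each gene, 5′ to 3′.
RNU11: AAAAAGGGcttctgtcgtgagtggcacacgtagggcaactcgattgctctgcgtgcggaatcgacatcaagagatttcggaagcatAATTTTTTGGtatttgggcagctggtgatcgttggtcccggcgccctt
RNU12: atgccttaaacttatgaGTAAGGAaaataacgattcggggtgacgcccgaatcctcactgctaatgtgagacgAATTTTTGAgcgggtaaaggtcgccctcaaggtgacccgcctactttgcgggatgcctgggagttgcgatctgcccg
RNU4ATAC: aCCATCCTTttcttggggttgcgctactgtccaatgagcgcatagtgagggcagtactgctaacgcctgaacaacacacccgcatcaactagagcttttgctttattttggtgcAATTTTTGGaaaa
RNU6ATAC: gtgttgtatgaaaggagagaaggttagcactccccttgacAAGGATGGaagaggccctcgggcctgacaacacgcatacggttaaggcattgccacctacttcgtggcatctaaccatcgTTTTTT
RNU7-1: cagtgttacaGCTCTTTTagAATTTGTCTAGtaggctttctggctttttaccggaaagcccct
In RNU11 the capitals mark the 5′ end that pairs with the splice site (positions 1 to 8, counted from the first base) and the Sm site (87 to 96). In RNU12 they mark the stretch that pairs with the branch site (18 to 24) and the Sm site (74 to 82). The capitals of RNU4ATAC are the stretch that pairs with U6atac (2 to 9) and the Sm site (115 to 123), those of RNU6ATAC the matching stretch (41 to 48) and the final run of T (121 to 126). In RNU7-1 they mark the stretch that pairs with the histone downstream element (11 to 18) and its variant Sm site (21 to 31). The longest run of perfect pairing between U4atac and U6atac was 8 bases, CCATCCTT of RNU4ATAC with AAGGATGG of RNU6ATAC. RNU4ATAC was identical to RNU4-2 at 54.1% of aligned columns (85 of 157) and RNU6ATAC to RNU6-1 at 52.6% (72 of 137), so neither is a near copy of its major counterpart.

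RNU11 (ENSG00000274978) lies at chr1:28648600-28648733 on the plus strand and is 134 bases long. RNU12 (ENSG00000276027) lies at chr22:42615244-42615393, plus strand, 150 bases. RNU4ATAC (ENSG00000264229) lies at chr2:121530881-121531007, plus strand, 127 bases, within introns of CLASP1 on the opposite strand and of CLASP1-AS1 on the same strand. RNU6ATAC (ENSG00000221676) lies at chr9:134164439-134164564 on the minus strand, 126 bases, and overlaps no other gene of the table. RNU7-1 (ENSG00000238923) lies at chr12:6943816-6943878, plus strand, 63 bases. The full sequence of each of the 5 occurs at 1 place in the genome. The first 40 bases occur at 3 places for RNU6ATAC and at 2 places for RNU11, and the last 40 bases of RNU6ATAC at 2 places, so a short read from these ends may have had more than 1 match.

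The total count was 1639796 to 1949886 in the siCTRL libraries and 1348386 to 1619500 in the siAPEX1 libraries, so every siAPEX1 library was smaller than every siCTRL library. The targeted gene APEX1 was counted 51, 61, 64 and 47 times in siCTRL replicates 1 to 4 and 21150, 19470, 27916 and 20767 times in siAPEX1 replicates 1 to 4. This is a log2 fold change of 9.29 (standard error, SE, 0.127, edgeR quasi-likelihood test, adjusted p = 8.97e-42), opposite to what the label says of the treated cells. Counts per gene do not show which part of a gene the reads cover, so they do not measure the silencing, and the Western blots by which the study assayed APE1 protein were not analysed here. Every direction below is that of the libraries labelled siAPEX1 against those labelled siCTRL. Keratins and aldo-keto reductases typical of A549 cells were detected (ALDH1A1 had 570 to 1175 counts), while EPCAM had at most 9 counts, SFTPC at most 1 and NKX2-1 none. The leukocyte and endothelial markers PTPRC, CD3E and PECAM1 had at most 1 count, and COL1A1 had 1 to 11. Of 13 markers that could be tested, 4 keratins were lower past both thresholds (30.8%, background 5.68% of all genes lower), among them KRT19 with 79.2 against 15.9 CPM. At the adjusted p alone 7 fell (53.8%, background 15.8%) and 3 rose (23.1%, background 15.9%). Those that rose were CDH1 (0.92 on the log2 scale), AKR1B10 (0.83) and AKR1C2 (0.44). The part of these markers in the values below was not tested. The study calls its replicates biological, but neither it nor the labels say whether the libraries of a group came from separate cultures or transfections, so the p-values measure the spread between these libraries.

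U4atac was lower in the siAPEX1 libraries by a small margin that passed the test. RNU4ATAC had 2274, 2273, 2389 and 1980 counts in siCTRL replicates 1 to 4 and 1039, 1002, 1347 and 1254 in siAPEX1 replicates 1 to 4. Scaled to a common library size (CPM, with TMM factors that set the bulk of genes at equal levels), these were 1143.4, 1100.8, 1107.1 and 1095.8 against 855.6, 813.3, 971 and 996.1. All siAPEX1 libraries were below all siCTRL libraries, and replicates 1 and 2 of siAPEX1 were the lowest. The mean was 1111.8 ± 21.6 CPM (SD, n = 4) in siCTRL and 909 ± 88.4 CPM (SD, n = 4) in siAPEX1, a level 0.818 times that of the control. The log2 fold change was −0.29 (SE 0.0863, 95% interval −0.46 to −0.12, edgeR quasi-likelihood test, adjusted p = 0.00807). The coefficient of variation between libraries was 1.94% in siCTRL and 9.73% in siAPEX1, and counting error alone gives 2.05% to 3.16% at these counts. The change stayed short of the fold threshold of 1 on the log2 scale. Without siAPEX1 replicate 1 the log2 fold change was −0.24 (adjusted p = 0.0501), and without siAPEX1 replicate 2 it was −0.22 (adjusted p = 0.0604).

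U6atac, its partner in the paired complex, did not differ beyond the spread between libraries. RNU6ATAC had 4034, 4663, 4604 and 4401 counts in the siCTRL libraries and 2900, 2510, 3164 and 2875 in the siAPEX1 libraries. The scaled values were 2028.4, 2258.2, 2133.6 and 2435.6 CPM against 2388, 2037.2, 2280.9 and 2283.7 CPM. The groups overlapped, with siAPEX1 replicate 2 and siCTRL replicate 1 the lowest and siCTRL replicate 4 the highest. The means were 2214 ± 175.1 CPM (SD, n = 4) and 2247.4 ± 148.8 CPM (SD, n = 4), and the log2 fold change was 0.02 (SE 0.0845, 95% interval −0.14 to 0.19, edgeR quasi-likelihood test, adjusted p = 0.878). Thus 0 of the 2 members tested passed both thresholds, where 9.28% of the 5368 genes tested did. At the adjusted p alone 1 of 2 passed, against 31.7% of all genes, and 1 of 2 had all siAPEX1 libraries below all siCTRL libraries, against 14.9%.

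**Figure D1:**
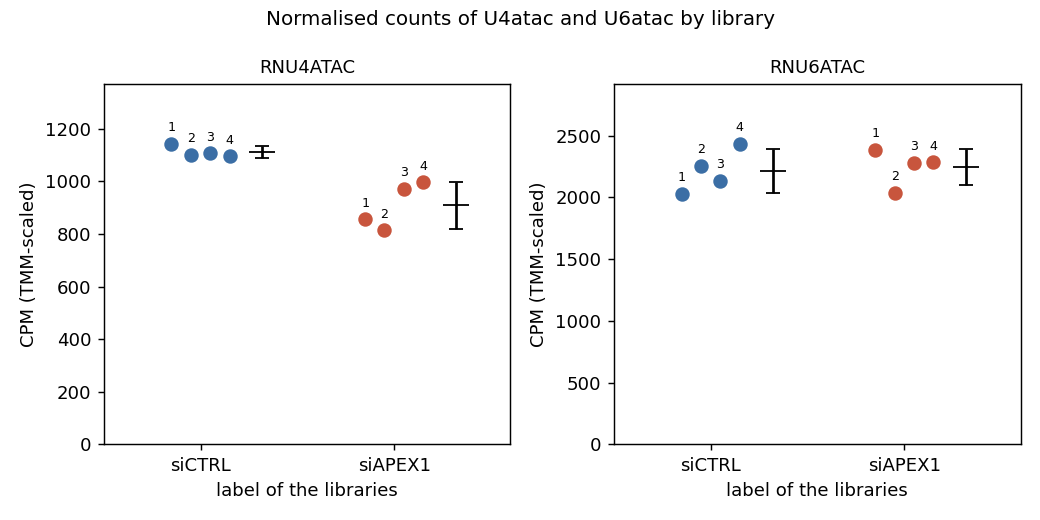
Normalised counts of RNU4ATAC and RNU6ATAC in CPM (vertical axes, from 0) for each library (points, numbered by replicate) labelled siCTRL or siAPEX1, with the mean and SD of each group beside the points. The siAPEX1 values of RNU4ATAC, 813.3 to 996.1 CPM, all lie below the siCTRL values, 1095.8 to 1143.4 CPM, while those of RNU6ATAC overlap.

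The direction of a single snRNA depends on how the libraries are scaled. With library size alone the median gene stood at −0.34 on the log2 scale, RNU4ATAC at −0.63 (edgeR quasi-likelihood test, adjusted p = 4.33e-08) and RNU6ATAC at −0.32 (adjusted p = 0.00203). RNU6ATAC was then at the level of the median gene, and RNU4ATAC was below it by 0.22 to 0.39 across the 19 alternative analyses. RNU4ATAC was negative in all 19 and had an adjusted p of at most 0.05 in 17. RNU6ATAC ranged from −0.32 to 0.09 and passed only with library size alone. Over all 5368 genes, library size alone gave 84 higher and 655 lower at both thresholds, against 193 and 305 as reported. The share of all genes at the adjusted p alone is not given for that scaling. Counts of gene lists under it below therefore have no background of their own.

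**Figure D2:**
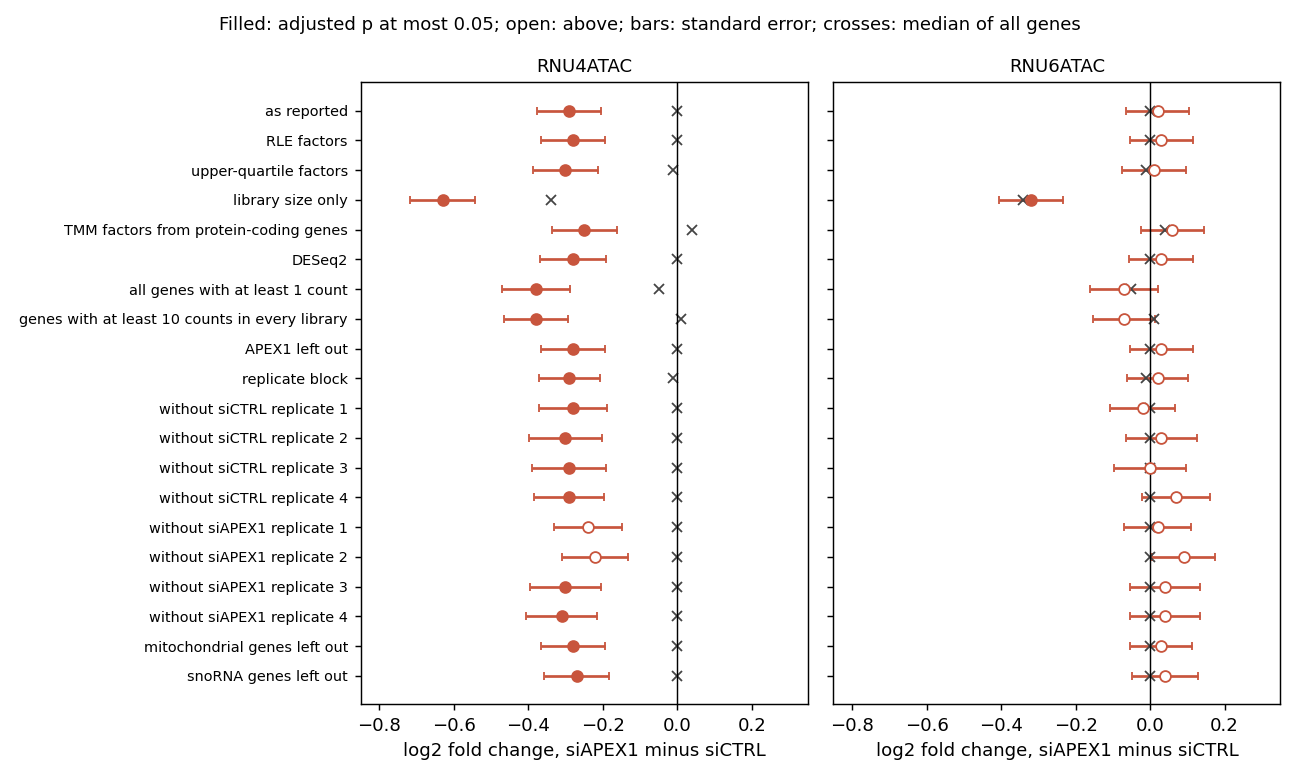
Log2 fold change (horizontal axes, siAPEX1 minus siCTRL) of RNU4ATAC and RNU6ATAC as reported and in each of 19 alternative analyses (rows); points are the estimates, filled where the adjusted p was at most 0.05, bars are standard errors and crosses the median of all genes tested. RNU4ATAC is left of 0 in every row, from −0.63 to −0.22, and RNU6ATAC lies on or next to the cross of all genes.

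Ratios of counts within a library do not depend on scaling, and all 3 that could be formed were lower in the siAPEX1 libraries. The ratio of U4atac to U6atac, partners in the paired complex, was 0.564, 0.487, 0.519 and 0.45 in the siCTRL libraries. In the siAPEX1 libraries it was 0.358, 0.399, 0.426 and 0.436. The groups did not overlap, and the mean was 0.505 ± 0.0482 (SD, n = 4) against 0.405 ± 0.0347 (SD, n = 4), a log2 difference of −0.32. The 2-sided exact permutation test gave p = 0.0286 (adjusted over the 3 ratios, 0.0286), the smallest value that 4 against 4 libraries allow. When any 1 siAPEX1 library was left out, the difference kept its sign but p was 0.0571. A ratio of counts is not a ratio of molecules, since reads are drawn from each RNA with unequal efficiency.

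U4atac was also compared with U4, which holds the same place in the major spliceosome. Its ratio to the sum of RNU4-1 and RNU4-2 was 0.926, 0.765, 0.793 and 0.813 in the siCTRL libraries and 0.497, 0.394, 0.572 and 0.561 in the siAPEX1 libraries. The means were 0.824 ± 0.0706 and 0.506 ± 0.0816 (SD, n = 4 each), without overlap, a log2 difference of −0.72 (exact permutation test, p = 0.0286, adjusted 0.0286). Here the denominator moved as well. RNU4-1 and RNU4-2, 97.2% identical and so uncertain as separate rows, rose by 0.32 (adjusted p = 0.00526) and 0.47 (adjusted p = 3.58e-05) on the log2 scale.

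The ratio of U6atac to the 5 expressed U6 genes was lower as well, but its size depended on which U6 rows were counted. It was 70.8, 74, 70.8 and 78.6 in the siCTRL libraries and 29.9, 21.5, 28.8 and 29.3 in the siAPEX1 libraries. The means were 73.6 ± 3.68 and 27.4 ± 3.97 (SD, n = 4 each), a log2 difference of −1.43 (exact permutation test, p = 0.0286, adjusted 0.0286). RNU6-2 rose by 2.33 (adjusted p = 6.38e-10) and RNU6-9 by 1.3 (adjusted p = 1.04e-08) on the log2 scale, while RNU6ATAC had 0.02. The 5 U6 genes together had only 56 to 65 counts per siCTRL library and 97 to 117 per siAPEX1 library. The sequence of RNU6-1, RNU6-2 and RNU6-9 stands at 7 places in the genome, and those of RNU6-7 and RNU6-8 at 2 places. None of the 5 is thus unique. A read with several equal matches is not counted by the counting mode of the aligner, so these rows hold an unknown part of U6. When the pseudogene rows of both families were added, the log2 difference shrank to −0.50 (exact permutation test, p = 0.0286), while that of U4atac to U4 was −0.71 with its pseudogene rows. The ratios of U11 to U12, of U11 to U1 and of U12 to U2 could not be formed, because RNU11, RNU12 and the 2 rows taken for U2 (RNU2-1 and RNU2-2P) had no counts. A further row named U2 (ENSG00000274452) and some U2 pseudogenes did have counts, and were not used as U2.

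**Figure D3:**
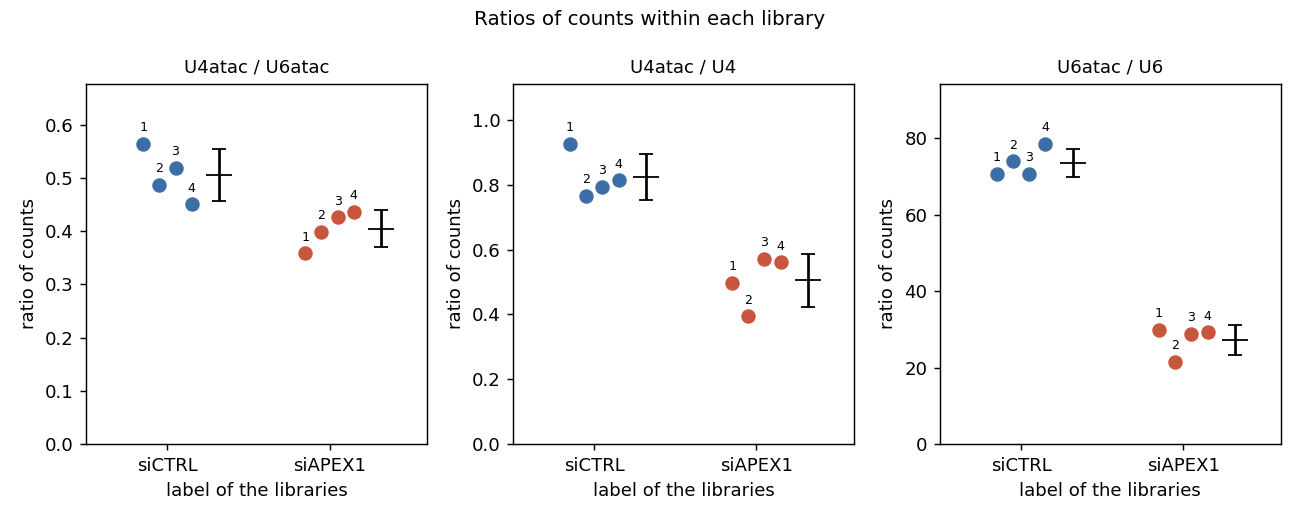
Ratio of counts within each library (vertical axes, from 0) of U4atac to U6atac, U4atac to U4 and U6atac to U6, by label, with points numbered by replicate and the mean and SD beside them. In each panel the 4 siAPEX1 libraries lie below the 4 siCTRL libraries, with means of 0.405 against 0.505, 0.506 against 0.824 and 27.4 against 73.6.

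U11, U12 and U7 were listed with 0 counts in all 8 libraries, so nothing can be said about their response. Taking 3 counts as the limit that a count of 0 allows, their level in these rows was at most 1.39 to 1.66 CPM in the siCTRL libraries and 2.16 to 2.47 CPM in the siAPEX1 libraries. This limit covers counting error only and applies to reads assigned to these rows, not to the RNA in the cells. The 3 loci share a property that the rows of U4atac and U6atac lack. RNU12 lies wholly inside an exon of a lncRNA gene on its own strand (ENSG00000270022, 150 of 150 bases), and 131 of the 134 bases of RNU11 lie in an exon of the lncRNA gene ENSG00000270103. In RNU7-1, 62 of 63 bases fall in an exon of C12orf57, a protein-coding gene on the same strand, and all 63 in the lncRNA gene ENSG00000272173 on the opposite strand. RNU4ATAC and RNU6ATAC share no base with an exon of another gene.

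The counting mode of STAR leaves out a read that overlaps more than 1 gene, and reads of these 3 snRNAs would meet that condition if the annotation used by the authors held the same overlaps. Whether reads were lost in this way was not tested, since reads were not analysed here. The overlapping genes did not take up large counts. ENSG00000270103 had 0 counts in all libraries, and ENSG00000270022 had 2, 1, 3 and 0 counts in the siCTRL libraries and 2, 8, 4 and 2 in the siAPEX1 libraries. C12orf57 had 46, 38, 45 and 37 against 18, 12, 25 and 25 counts (log2 fold change −0.40, edgeR quasi-likelihood test, adjusted p = 0.125). Of the 40 snRNA genes that lie wholly inside same-strand exons of other genes, 36 (90%) had 0 counts in every library and 1 (2.5%) passed 3 counts in any. Of the 1816 snRNA genes without such overlap, 1385 (76.3%) had 0 counts and 119 (6.55%) passed 3. RNU12 belongs to the former class, but RNU11 and RNU7-1 reach past the exon by a few bases and belong to neither. In their class of 29 snRNA genes with other overlaps, 22 (75.9%) had 0 counts and 2 (6.9%) passed 3. This class takes in overlaps of any length on either strand, so it does not single out genes covered almost wholly, as RNU11 and RNU7-1 are. Over miRNA, snRNA, snoRNA, scaRNA and miscellaneous small RNA genes together, 89.5% of those wholly inside same-strand exons had 0 counts and 8.25% passed 3. Without overlap these shares were 72.4% and 9.07%. The classes are mixed in unequal parts, and in each class alone the share passing 3 was lower inside such exons. It was 6.05% against 12.6% for miRNA, 15.9% against 20.8% for snoRNA and 22.2% (2 of 9) against 31.6% for scaRNA genes. For miscellaneous small RNA genes it was 2.21% against 4.46%. Genes wholly inside opposite-strand exons only also had a low share passing 3, at 4.25% over these classes together. It was 4.1% for miRNA and 1.41% for miscellaneous small RNA genes, but 6.67% (1 of 15) for snRNA and 50% (2 of 4) for snoRNA genes. A lower share was thus not particular to same-strand overlap. Most of these genes are pseudogenes, so the classes differ in more than overlap.

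**Figure D4:**
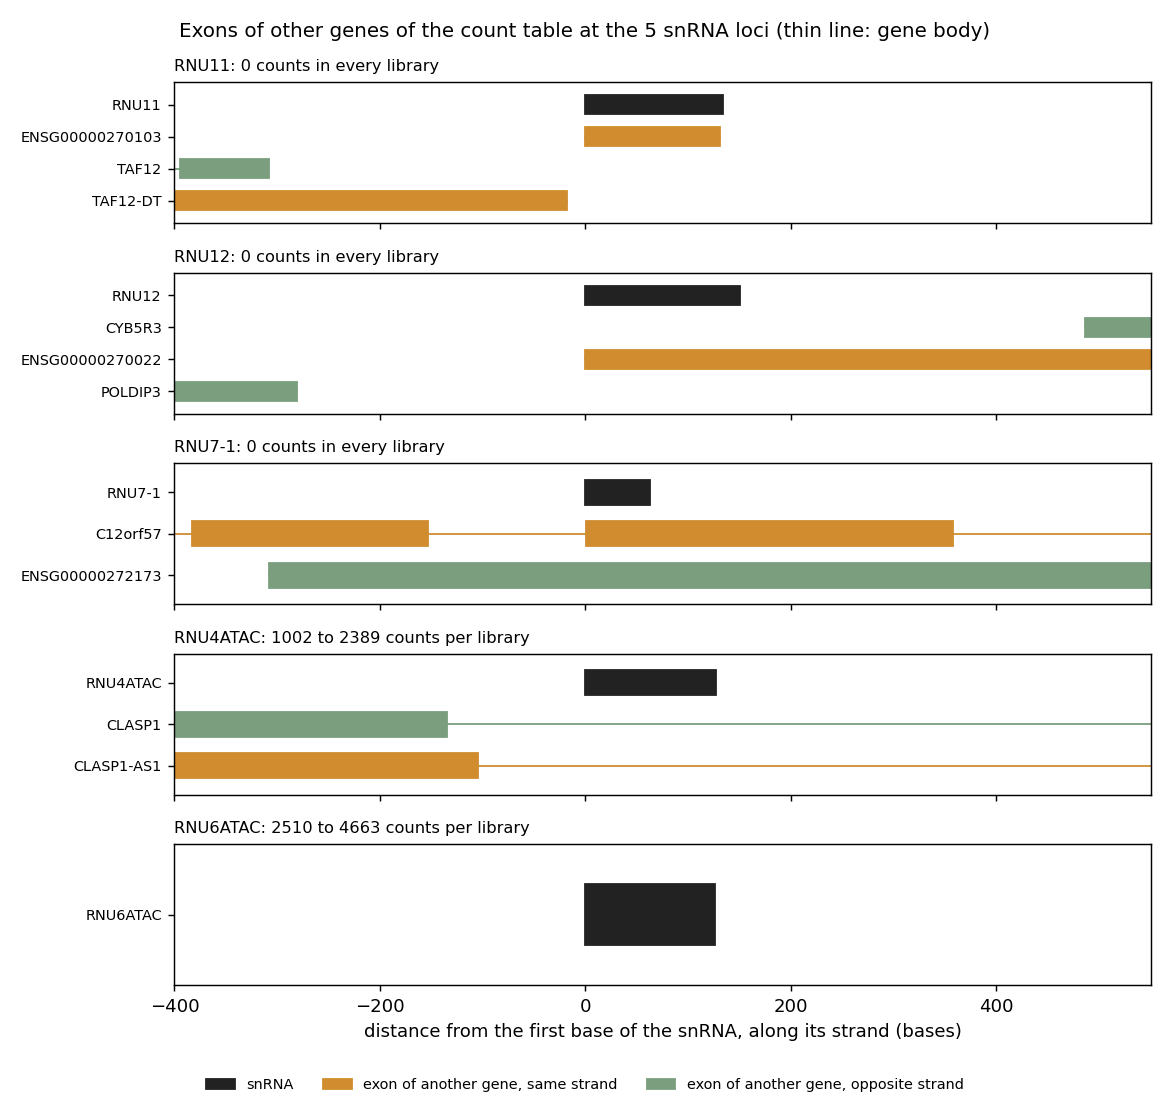
Exons of other genes of the count table around each of the 5 snRNA genes, by distance in bases from the first base of the snRNA along its strand (horizontal axis); black bars are the snRNAs, orange bars exons on the same strand, green bars exons on the opposite strand and thin lines gene bodies. The 3 snRNAs listed at 0 counts lie under same-strand exons, and RNU4ATAC (1002 to 2389 counts per library) and RNU6ATAC (2510 to 4663) do not.

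The protein-coding gene around RNU4ATAC, on the other strand, rose at the adjusted p, but on few counts and not under every scaling. CLASP1, which encodes a microtubule-binding protein and holds RNU4ATAC in an intron on the opposite strand, had 9, 8, 14 and 8 counts in the siCTRL libraries and 12, 15, 13 and 7 in the siAPEX1 libraries. Its log2 fold change was 0.91 (SE 0.307, edgeR quasi-likelihood test, adjusted p = 0.0196), and the counts overlapped between groups. Scaled by library size alone it was 0.57 (adjusted p = 0.131). CLASP1-AS1, on the strand of RNU4ATAC, had at most 1 count per library.

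Further rows of the 5 families, nearly all pseudogenes, added little to the counts of the members. Of 212 such rows, 189 had 0 counts in every library, none passed the filter on low counts, and the highest count was 10. The 41 rows of the RNU6ATAC family summed to 16 to 22 counts per siCTRL library and 9 to 13 per siAPEX1 library, beside at least 2510 counts of RNU6ATAC itself. The 17 rows of the RNU4ATAC family summed to at most 1 count per library and the 148 rows of the RNU7 family to at most 5. The 5 rows of RNU11 and the 1 of RNU12 were at 0.

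RNU4ATAC had the lowest log2 fold change among the tested snRNA genes. Of the 56 that passed the filter on low counts, 29 rose at an adjusted p of at most 0.05 (background 15.9% of all genes) and 1 fell (background 15.8%), which was RNU4ATAC. It was the lowest of the 56 also under RLE factors, upper-quartile factors, library size alone and TMM factors from protein-coding genes. Just above it were RNU5E-1 (−0.06), RNU5D-1 (−0.03) and RNU2-6P (−0.02), which did not pass the test. The median over the 56 was 0.51, against 0 over all genes. With library size alone the counts were 24 higher and 5 lower, with a median of 0.17 where that of all genes was −0.34. At both thresholds 21 were higher (background 3.6%) and 0 lower (background 5.68%), and DESeq2 gave 21 and 0. At an unadjusted p under 0.05, edgeR gave 35 higher and 1 lower. Many of these rows are copies of the same RNA and are not independent.

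U5, the snRNA that both spliceosomes use, did not move as a unit. RNU5A-1 rose by a log2 fold change of 0.96 (adjusted p = 4.82e-10, edgeR quasi-likelihood test) and RNU5F-1 by 1.22 (adjusted p = 1.67e-13). RNU5B-1 had 0.27 (adjusted p = 0.142), RNU5D-1 −0.03 (adjusted p = 0.875) and RNU5E-1 −0.06 (adjusted p = 0.717). The members together, of which only RNU4ATAC and RNU6ATAC had counts, held 20.2 ± 0.852% (SD, n = 4) of the snRNA counts in the siCTRL libraries. In the siAPEX1 libraries they held 15.4 ± 1.7% (SD, n = 4), where the median of the tested snRNA genes rose by 0.51 on the log2 scale. Their share of all counts was 0.365 ± 0.0164% against 0.275 ± 0.0203% (SD, n = 4 each). Such a share is scaled by library size alone, under which the median of all genes tested stood at −0.34 on the log2 scale.

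**Figure D5:**
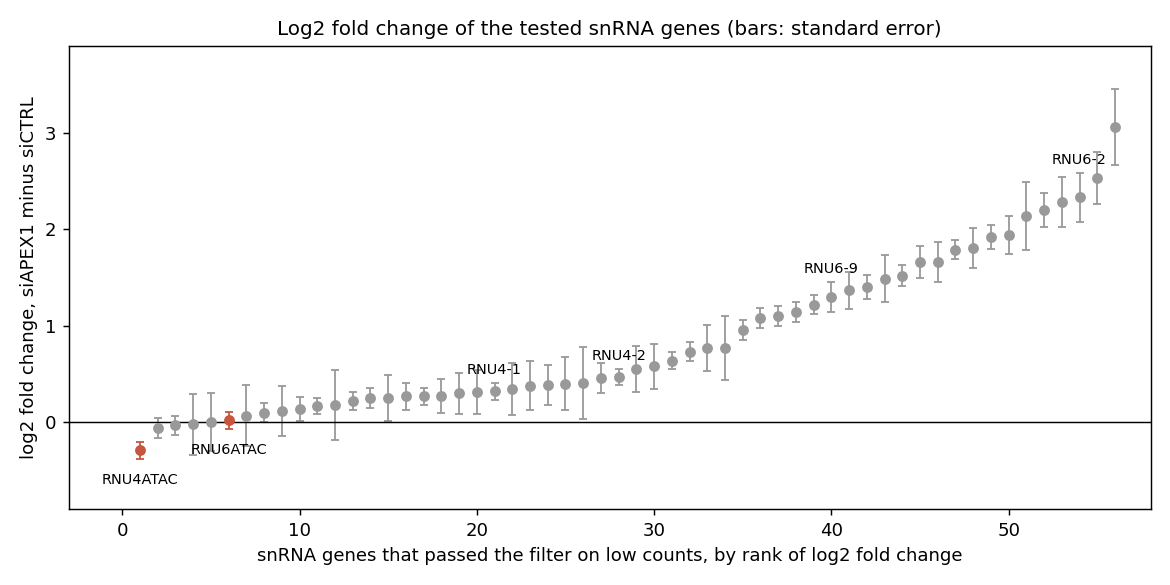
Log2 fold change (vertical axis, siAPEX1 minus siCTRL, bars standard errors) of the 56 snRNA genes that passed the filter on low counts, in order of that value (horizontal axis), with RNU4ATAC and RNU6ATAC in red. RNU4ATAC is the lowest at −0.29, RNU6ATAC is at 0.02, and the median of the 56 is 0.51.

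The proteins that make the U11/U12 particle were sparsely covered and gave no call. Of 8 genes listed, 3 passed the filter on low counts, and 1 of 3 rose at the adjusted p (33.3%, background 15.9%), against 0 with library size alone and 0 with DESeq2. This was SNRNP48, a protein of the U11/U12 particle at the 5′ splice site, with 15, 13, 11 and 7 against 8, 9, 14 and 20 counts (log2 fold change 0.80, SE 0.304, edgeR quasi-likelihood test, adjusted p = 0.0409). Its libraries overlapped, and without siAPEX1 replicate 4 it had 0.51 (adjusted p = 0.283). ZCRB1, another protein of the particle, had 0.18 (adjusted p = 0.289). Of 7 other proteins of the minor spliceosome 3 were tested and 0 passed, also at an unadjusted p under 0.05 and with DESeq2, with values of 0.33 for SCNM1 and 0.27 for RBM41. The medians of these lists were −0.14 and −0.07 with library size alone, where that of all genes was −0.34.

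Of the ring proteins that bind these snRNAs, 1 gene of each ring was lower past both thresholds. This is 1 of the 7 tested genes of each list (14.3%, background 5.68%), too few to describe either ring. The LSm list also holds end-processing genes outside the ring, such as SSB and USB1. All 7 Sm genes were tested, and at the adjusted p 1 rose (14.3%, background 15.9%) and 2 fell (28.6%, background 15.8%), with a median of −0.26. Scaled by library size alone 0 rose and 4 fell, with a median of −0.60 where that of all genes was −0.34. With DESeq2 0 rose and 1 fell. SNRPD3, a subunit of the Sm ring of U11, U12, U4atac and U7, had 27, 25, 40 and 23 counts in the siCTRL libraries and 5, 3, 8 and 9 in the siAPEX1 libraries, without overlap. Its log2 fold change was −1.53 (SE 0.291, edgeR quasi-likelihood test, adjusted p = 5.45e-05), past both thresholds in 18 of 18 alternatives. SNRPB fell by 0.61 (adjusted p = 0.0105; −0.38 and 0.102 without siCTRL replicate 1), while SNRPE rose by 0.49 (adjusted p = 0.0347; 0.15 and 0.546 with library size alone). Of 10 genes of the LSm ring and of U6-type end processing 7 were tested, and 0 rose and 2 fell (28.6%, background 15.8%), with a median of 0.02. At an unadjusted p under 0.05, 2 were higher and 2 lower, and with DESeq2 0 rose and 1 fell. LSM8, the subunit that sets the nuclear ring on U6 and U6atac apart from the cytoplasmic one, had 25, 30, 20 and 25 against 10, 8, 3 and 5 counts. Its log2 fold change was −1.28 (SE 0.303, adjusted p = 0.001), and −0.97 (adjusted p = 0.0167) without siAPEX1 replicate 3. LSM7 fell by 0.53 (adjusted p = 0.0262; 0.127 with DESeq2).

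The remaining machinery of these snRNAs gave no call. Of 11 tri-snRNP proteins shared with the major spliceosome 7 were tested and 0 passed, also at an unadjusted p under 0.05 and with DESeq2, with PRPF31 at −0.44 and PRPF8, the large protein at the heart of the spliceosome, at 0.22. Of 28 genes of snRNA transcription and 3′ end formation 10 were tested, and 1 fell at the adjusted p, a share of 10% that lies below the background of 15.8%. With DESeq2 0 fell. The gene was INTS3, a subunit of the Integrator complex that cuts the 3′ ends of polymerase II snRNAs, with 13, 17, 25 and 14 against 6, 5, 7 and 7 counts (log2 fold change −0.80, edgeR quasi-likelihood test, adjusted p = 0.047). Without siCTRL replicate 3 it had −0.60 (adjusted p = 0.191). BDP1, a subunit of the polymerase III initiation factor TFIIIB, had 0.21. Of 20 genes of snRNP assembly, capping and import 5 were tested and 0 passed, with 1 lower at an unadjusted p under 0.05 and 0 with DESeq2, and with CLNS1A at −0.39 and STRAP at 0.16. The highest count in this last list was 51, so most of these mRNAs were too sparse here for a test.

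Genes with a U12-type intron, whose splicing needs the minor spliceosome, mostly did not pass the test, and of those that passed 14 were lower and 7 higher. U12-type introns were sought in 256362 introns of protein-coding genes by an intron start of ATATCCTT or GTATCCTT, an end of AG or AC, and CTTAAC or CTTGAC in the last 40 bases, on the strand of the gene only. This gave 306 introns in 279 genes, of which 104 were AT-AC, 193 GT-AG and 9 AT-AG. Introns that share a start but differ in their end, or that belong to overlapping genes, were counted separately. In some, as in an intron of ARPC5, the motif stood at the very end of the intron. Of 277 genes with an intron found by this rule in the table, 97 passed the filter on low counts. At the adjusted p 7 rose (7.22%, background 15.9%) and 14 fell (14.4%, background 15.8%), and the median was −0.16 against 0 for all genes. With DESeq2 1 rose and 5 fell. With library size alone 1 rose and 41 fell, with a median of −0.50 where that of all genes was −0.34. Under that scaling 655 of the 739 calls over all genes at both thresholds were lower too. Counts per gene do not separate spliced from unspliced RNA, so they do not measure splicing of these introns.

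The 4 host genes with the largest changes are shown with both ends of their U12-type intron, since these are the sites that U11, U6atac and U12 pair with. Capitals mark the 5′ splice site and the branch site motif, read on the strand of the gene.
CAPNS1, start of the intron: GTATCCTTgggg
CAPNS1, end of the intron: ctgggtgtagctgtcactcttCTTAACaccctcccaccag
CAPN1, start of the intron: GTATCCTTccgt
CAPN1, end of the intron: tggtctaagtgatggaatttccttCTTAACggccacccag
CDK5, start of the intron: ATATCCTTgctt
CDK5, end of the intron: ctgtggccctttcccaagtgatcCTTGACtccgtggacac
SPCS2, start of the intron: ATATCCTTtatt
SPCS2, end of the intron: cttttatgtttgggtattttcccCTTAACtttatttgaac
The intron of CAPNS1 lies at chr19:36143129-36145805 (plus strand), that of CAPN1 at chr11:65209388-65209848 (plus), that of CDK5 at chr7:151054466-151055026 (minus) and that of SPCS2 at chr11:74965924-74969564 (plus), all in GRCh38. The introns of CAPNS1 and CAPN1 are GT-AG and those of CDK5 and SPCS2 are AT-AC, so both subtypes are among them.

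At both thresholds 5 of the 97 host genes were called (5.15%, background 9.28%), 1 higher and 4 lower. CAPNS1, the small regulatory subunit of the calpains, had 124, 138, 136 and 112 counts in the siCTRL libraries and 11, 20, 11 and 20 in the siAPEX1 libraries, without overlap. Its log2 fold change was −2.38 (SE 0.169, edgeR quasi-likelihood test, adjusted p = 9.51e-15), past both thresholds in 19 of 19 alternatives. CAPN1, a catalytic subunit that pairs with CAPNS1, had 48, 23, 34 and 26 against 11, 6, 8 and 10 counts, and a log2 fold change of −1.24 (SE 0.276, adjusted p = 0.000463). CAPNS1 and CAPN1 were thus both lower, with all siAPEX1 libraries below all siCTRL libraries. CAPN2, another calpain gene among the hosts, was not called and had −0.38 (SE 0.137, edgeR quasi-likelihood test, adjusted p = 0.0297), with overlap. CDK5, a kinase best known from neurons, had 18, 22, 20 and 11 against 8, 3, 4 and 6 counts (log2 fold change −1.09, SE 0.335, adjusted p = 0.0106; 0.0653 with DESeq2), with overlap. SPCS2, a subunit of the signal peptidase of the endoplasmic reticulum, had 75, 114, 81 and 99 against 149, 122, 155 and 151 counts (log2 fold change 1.3, SE 0.123, adjusted p = 2.44e-11; 0.96 with library size alone). SPCS2 has near-identical copies in the genome, so its counts are uncertain. The fifth host gene called, EXOSC5, a subunit of the RNA exosome, fell outside the rule for named genes and was named after its values were seen. Its value was −1.07 (adjusted p = 0.0218), and −0.71 (adjusted p = 0.173) without siCTRL replicate 1.

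Among replication-dependent histone genes, the targets of U7, 14 of 30 rose at the adjusted p, while 0 of 8 genes of the processing machinery passed. Of 65 histone genes listed, 30 passed the filter on low counts, 14 rose (46.7%, background 15.9%) and 1 fell (3.33%, background 15.8%), with a median of 0.43 against 0 for all genes. With DESeq2 8 rose and 1 fell. Under library size alone 4 rose and 5 fell, with a median of 0.09 where that of all genes was −0.34. At both thresholds 3 were called (10%, background 9.28%). H1-2, a linker histone, had 70, 74, 73 and 82 against 114, 100, 103 and 79 counts, a log2 fold change of 1.06 (SE 0.129, edgeR quasi-likelihood test, adjusted p = 1.3e-08; 0.72 with library size alone). H2AC14, an H2A gene, had 4, 11, 9 and 15 against 12, 15, 17 and 8 counts (1.06, SE 0.322, adjusted p = 0.00974; 0.0639 with library size alone). H3C13, an H3 gene, had 18, 15, 19 and 16 against 3, 4, 4 and 2 counts, without overlap (−1.70, SE 0.361, adjusted p = 0.00026). Histone genes have near-identical copies whose reads may be split or dropped in counting, so single rows are uncertain, and the whole-family count rests on rows that are not independent.

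Of 16 genes of the U7 particle and of histone 3′ end processing 8 were tested and 0 passed with edgeR or DESeq2, with a median of 0.11, and 0 had an unadjusted p under 0.05. SYMPK, the scaffold of the cleavage complex, had 0.33 and CASP8AP2, a protein of the histone locus body, 0.21. The highest count in this list was 30, so at this depth only large changes could have been detected. U7 itself had 0 counts, and its part in the histone values was not tested.

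The genes whose levels across libraries were most like those of the members were taken from the 635 other genes with a mean of at least 50 CPM, by Pearson correlation of log2 CPM over the 8 libraries. For RNU4ATAC these were MIR331 (r = 0.949), MIR221 (0.946) and CNTN1 (0.916), which encodes a neuronal adhesion protein. All were lower in the siAPEX1 libraries, from 88 to 57 CPM for MIR331, from 180.2 to 106.1 for MIR221 and from 87.6 to 51.4 for CNTN1. For RNU6ATAC they were RPS6 (0.843), the processed pseudogene ENSG00000279483 (0.789) and RPL39 (0.758), of which RPS6 and RPL39 encode ribosomal proteins. These did not pass the test, with mean levels of 2353.5 and 2519.2 CPM for RPS6 and 317.7 and 345.2 CPM for RPL39. The correlations were chosen as the highest of many and are a description. Those of RNU4ATAC include the difference between the groups, while RNU6ATAC and its partners differed little between them.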

How the data were processed

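Small and longer RNA of 8 libraries of A549 cells was sequenced as single-end reads. Per the labels and the methods of the study, the authors trimmed adapters and poly-A tails with Cutadapt, used STAR 2.5.3a for alignment to GRCh38 and counted reads per Ensembl gene with its GeneCounts mode. The annotation release and the strand setting are not given in the sources used here. The deposited values are whole-number counts per gene without normalization.

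The labels gave each library its group and replicate number. Of the 58302 identifiers 57532 were found in GENCODE 44, which gave symbols, loci and overlaps. Counts were tested with edgeR 4.0.16 in R 4.3.3 (TMM factors, quasi-likelihood test, Benjamini-Hochberg adjustment). Genes were kept by filterByExpr (at least 10 counts, total at least 15), which left 5368. The call required a log2 fold change of 1 or more in size with an adjusted p of 0.05 or less, and "rose" or "fell" means the adjusted p alone. CPM use the TMM factors, and log2 CPM a prior count of 2. Ratios of counts within a library were compared on the log2 scale, with a pseudocount of 0.5, by a 2-sided exact permutation test over 70 labelings. Of 6 ratios planned, 3 had a numerator or denominator at 0 and were left out.

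The alternatives were RLE factors, upper-quartile factors, library size alone, TMM factors from protein-coding genes, DESeq2 1.42.0, other filters on low counts, a fold threshold of 0.75, the adjusted p alone, APEX1 left out, the replicate number as a block, each library left out and, for ratios, a pseudocount of 5 and added pseudogene rows. Leaving out mitochondrial or snoRNA genes was added after seeing the data. The fits were tested on simulated counts. Named genes were APEX1, the members, in each list every called gene or the 4 with the largest change, or failing any the 2 with the lowest p, and the 3 genes most like each member. Genes that passed at the adjusted p alone and genes that overlap the members were also named, after their values were seen. The members, lists and rules were chosen with earlier results of these data known. Symbols of 5 list genes are older names of genes listed under their new name and matched no row. Pairs of replicates differed by more than sampling noise (chi-square per degree of freedom 1.67 to 2.97), so no library was counted as a duplicate. Intervals and floors cover counting error or the fit only.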

Additional observations from a re-analysis of the deposited data

Results flagged for a closer look

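The ratio of U6atac to U6 in the siAPEX1 libraries has 1 library far from the others. Replicate 2 had 21.5, while the other 3 had 28.8, 29.3 and 29.9, so that its gap to the nearest library took up 0.866 of the range of the group, above Dixon's 95% critical value for 4 libraries. The U6 genes had 117 counts in that library, the most of any, and RNU6ATAC had 2510, the fewest. Chance flags about 1 in 20 groups, and 10 groups of values were examined. Over all ways of leaving out 1 library the log2 difference of this ratio ranged from −1.48 to −1.32.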

How the results depend on the processing

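RNU4ATAC kept a negative log2 fold change in 19 of 19 alternatives, but its adjusted p passed 0.05 without siAPEX1 replicate 1 (0.0501) or 2 (0.0604); over the libraries left out in turn it ranged from −0.31 to −0.22. RNU6ATAC, which did not differ in the analysis as reported, changed sign with library size alone (−0.32), with all genes of at least 1 count (−0.07), with a minimum of 10 in every library (−0.07), and ranged from −0.02 to 0.09 with 1 library left out. The log2 ratio of U4atac to U6atac ranged from −0.37 to −0.26 with 1 library left out, with p up to 0.0571, that of U4atac to U4 from −0.78 to −0.60 and that of U6atac to U6 from −1.48 to −1.32. A pseudocount of 5 or added pseudogene rows changed no call of a ratio, but the pseudogene rows moved U6atac to U6 from −1.43 to −0.50. Genes called numbered 498 of 5368 as reported, 739 of 5368 with library size alone and 468 of 5368 with DESeq2. They numbered 943 with all genes of at least 1 count and 181 with at least 10 counts in every library. At a fold threshold of 0.75 they numbered 935, at the adjusted p alone 1703 and with 1 library left out 528 to 603. With library size alone 11.4% of calls were higher, against 38.8% as reported. In the gene lists 10 of 176 genes were called, 17 with library size alone, 2 with at least 10 counts in every library, 27 at the threshold of 0.75, 43 at the adjusted p alone and 9 to 15 with 1 library left out. Hosts of U12-type introns called numbered 5 of 97 as reported, 13 of 97 with library size alone and 3 of 97 with DESeq2. They numbered 8 with all genes of at least 1 count, 2 with at least 10 counts in every library and 14 at the threshold of 0.75. At the adjusted p alone 21 hosts were called, and 4 to 6 with 1 library left out. The cause of these shifts was not tested, and only some of the settings changed the number of genes tested. Same-numbered libraries did not deviate together (correlations −0.0373 to −0.00348, and 0 libraries matched best with their own number), and with the replicate number as a block RNU4ATAC had −0.29 (edgeR quasi-likelihood test, adjusted p = 0.00993), RNU6ATAC 0.02 and 494 genes were called. Library size and group run together, and U11, U12 and U7 could not be assessed at any depth from rows at 0.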
